A study of Mus musculus with 32 samples.

Results

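The 14 tumor arrays described here were 6 from EP2 knockout hosts (knockout tumor 12, 59B, 15, 95, 99 and the array titled T149) and 8 from wild-type hosts (wild-type tumor 1, 5, 45, 68, 4, 9, 65 and 82), out of 16 tumor arrays and 32 arrays in all. Knockout tumor 51 and 81 were left out because they held the highest levels of T cell and interferon genes among the tumor arrays, so that the rest of the genotype difference could be seen without them. The arrays were thus selected on measured levels of these genes, and in the knockout group alone: wild-type arrays were not trimmed in the same way. MCG 101 is a mouse sarcoma raised with methylcholanthrene and passed on by transplantation, and its cells had been implanted in hosts titled EP2+/+ or EP2-/-. Of the knockout arrays kept, 3 were labelled female and 3 male, and of the wild-type arrays 4 and 4. The labels name no treatment beside the implantation. Strain, age and the kind of deletion are not given in the sources used here, and no label says that the implanted cells themselves lack EP2, so each array mixes RNA of implanted cells with RNA of host cells. The other 16 arrays were from stroma around the tumors, and they enter below only for comparison.

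EP2, encoded by Ptger2, is a receptor for prostaglandin E2 that couples to Gs and raises cAMP. Cyclooxygenases (Ptgs1 and Ptgs2) and a terminal synthase (Ptges) make prostaglandin E2, and the lipid acts through 4 receptors, EP1 to EP4, on tumor cells, vessels and leukocytes. In tumors it is known for restraining T cells and natural killer cells and for shaping the recruitment of myeloid cells, neutrophils among them.

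Each array gave 1 value per probe, the log2 of Agilent's processed Cy3 signal minus the log2 of the array's 75th percentile, and a level below refers to this scale. Between 48.0% and 58.1% of probes were well above background on 13 of the 14 arrays, and 75.2% on wild-type tumor 5. That array also had the most outlier spots, 483 against 75 to 175 on the other 13. No spot was saturated, and the number of arrays limits the precision. The labels do not state how samples of a group were separated, so p-values measure the spread between these arrays. Knockout tumor 95 and 99, labelled male, had Y-linked levels within the range of the female-labelled arrays. Knockout tumor 15 was thus the only one of the 3 knockout arrays labelled male with a Y-linked signal above that range. Xist, a sex-linked gene, was at -5.29 and -4.00 on knockout tumor 95 and 99. It was at most at -5.97 on the other male-labelled tumor arrays and from -5.02 to -3.15 on the female-labelled ones. Values in male or female hosts alone go by the labels. The arrays lay on 6 slides, of which 2 held both genotypes among the 14 arrays. Slide 3 held knockout tumor 95 with wild-type tumor 68 and 4, and slide 4 held knockout tumor 12 with wild-type tumor 5, 9 and 65. Knockout tumor 59B, 15 and 99 shared slide 1 with no wild-type array, so for the arrays on slides of 1 genotype slide and genotype cannot be told apart. Of the 14 arrays 7 lay on slides 3 and 4. Values within slides 3 and 4, and with slide as a fixed block, stand beside the results below.

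The levels that chose the arrays were far apart. The mean level of 17 T cell markers was 0.38 on knockout tumor 51 and 0.57 on knockout tumor 81, against -1.79 to -0.69 on the other 14 tumor arrays. The mean of 16 interferon gamma response genes was 4.35 and 3.53, against -0.48 to 2.62. Just below the pair left out stood knockout tumor 95 (-0.69) for T cell markers and knockout tumor 99 (2.62) for the interferon gamma response. The widest gaps of single genes were those of H2-Aa, Calhm6, C1qa, Ly6i and Klrk1. H2-Aa, an MHC class II chain of antigen-presenting cells, was at 3.33 and 3.40 on the arrays left out and at most at 0.83 on the other 14. C1qa, a complement subunit made by macrophages, was at 3.96 and 4.31 against at most 1.79, and Klrk1, an activating receptor of natural killer and cytotoxic T cells, at 0.61 and 0.55 against at most -1.47. Of the 24575 genes tested below, 605 (2.46%) were higher on both arrays left out than on each of the other 14.

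**Figure D1:**
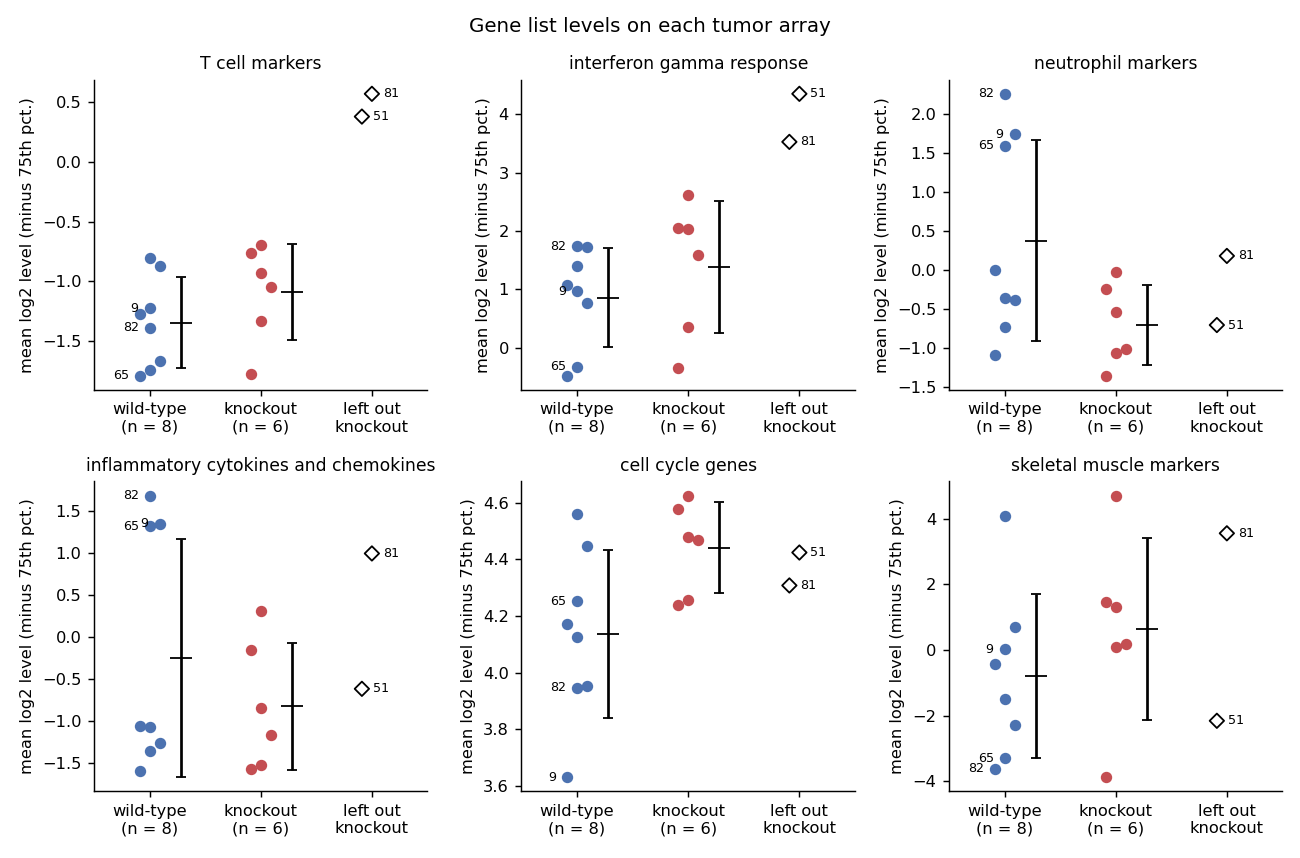
Mean log2 level of 6 gene lists (y axis, log2 signal minus the array's 75th percentile) on each tumor array: 8 wild-type hosts (blue), 6 knockout hosts (red) and the 2 knockout arrays left out (open diamonds, numbered); bars are mean ± SD of the arrays kept. The arrays left out stand above the other 14 for T cell markers and the interferon gamma response, and wild-type tumor 9, 65 and 82 (numbered) stand above the other 11 for neutrophil markers and inflammatory cytokines.

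The first question was which genes differed between the hosts once these arrays were left out. None of 24575 genes passed limma's test at an adjusted p under 0.05 (percent called 0), the smallest adjusted p being 0.9999. At an unadjusted p under 0.05 there were 369 genes (1.5%), 215 higher and 154 lower in knockout hosts. With 51 and 81 kept, 837 of 24873 genes reached that level and again none passed. The split between higher and lower depended on the scaling: 57.5% of genes were higher in knockout hosts here, and 42.5% where the 75th percentile was taken over bright probes only. The median difference over all genes was 0.04 (log2, knockout minus wild type), and 0.15 with slide as a fixed block, where 948 genes reached an unadjusted p under 0.05. Differences with that block are best read against 0.15.

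Genes were named by the smallest p, provided that every array of the group with the higher level was above background. The genes higher in knockout hosts were Ppl, Fhod3, Hoxb8, Usp44, Rnase4, Fanca, Ncoa7 and Kif20a. Ppl encodes periplakin, a linker between desmosomes and filaments. Its level ran from 1.08 to 2.09 in knockout hosts (median 1.85) and from -0.28 to 1.89 in wild-type hosts (median 1.25), a difference of 0.88 ± 0.23 (SE, limma, unadjusted p = 0.0025). The groups overlapped, and the 3 lowest arrays were wild-type tumor 9 (-0.14), 65 (-0.06) and 82 (-0.28). Rnase4, a secreted ribonuclease, ran from -0.73 to 1.04 (median 0.39) against -1.62 to 0.49 (median -0.92), a difference of 1.16 ± 0.33. All 6 knockout arrays lay above the wild-type median, and wild-type tumor 9 was the single wild-type array among the upper 4. Kif20a, a kinesin of cytokinesis, ran from 3.55 to 4.14 (median 3.81) against 3.01 to 3.70 (median 3.36), a difference of 0.47 ± 0.15. Each of these 3 genes kept its direction under every alternative run.

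The genes lower in knockout hosts were Adam8, Mirt2, Gdpd2, Ccbe1, Fam13c, Stfa2l1, Nos2 and Neil2. Adam8, a metalloprotease of leukocytes and tumor cells, ran from 2.98 to 3.64 in knockout hosts (median 3.52) and from 3.01 to 5.15 in wild-type hosts (median 3.85), a difference of -0.59 ± 0.18. The 4 highest values were those of wild-type tumor 82 (5.15), 9 (4.999), 65 (4.40) and 4 (4.15), all labelled male. Mirt2, a long noncoding RNA, was at 1.63, 0.58 and 1.57 on wild-type tumor 9, 65 and 82 and at most at -2.16 on the other 11 arrays, a difference of -2.03 ± 0.63 between the hosts. Nos2, the inducible nitric oxide synthase, ran from -0.21 to 1.80 (median 0.55) against -0.31 to 3.52 (median 1.45), a difference of -0.85 ± 0.29. Its 4 highest arrays were again the wild-type arrays labelled male, and in female hosts alone the difference was 0.22.

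Groups that did not overlap were rare: 4 of 24575 genes (0.0163%), all of them higher in knockout hosts. Those with a symbol were Fanca, Prpf8 and Suz12. Fanca, of the Fanconi anemia DNA repair complex, ran from 2.89 to 3.53 against 2.21 to 2.87, a difference of 0.50 ± 0.15. Prpf8, a core splicing factor, ran from 7.13 to 7.53 against 6.52 to 7.13, and Suz12, a subunit of Polycomb repressive complex 2, from 2.66 to 3.11 against 2.29 to 2.65. In both Prpf8 and Suz12 knockout tumor 95 was the highest array, and the gap between the groups was narrower than the spread within either.

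**Figure D2:**
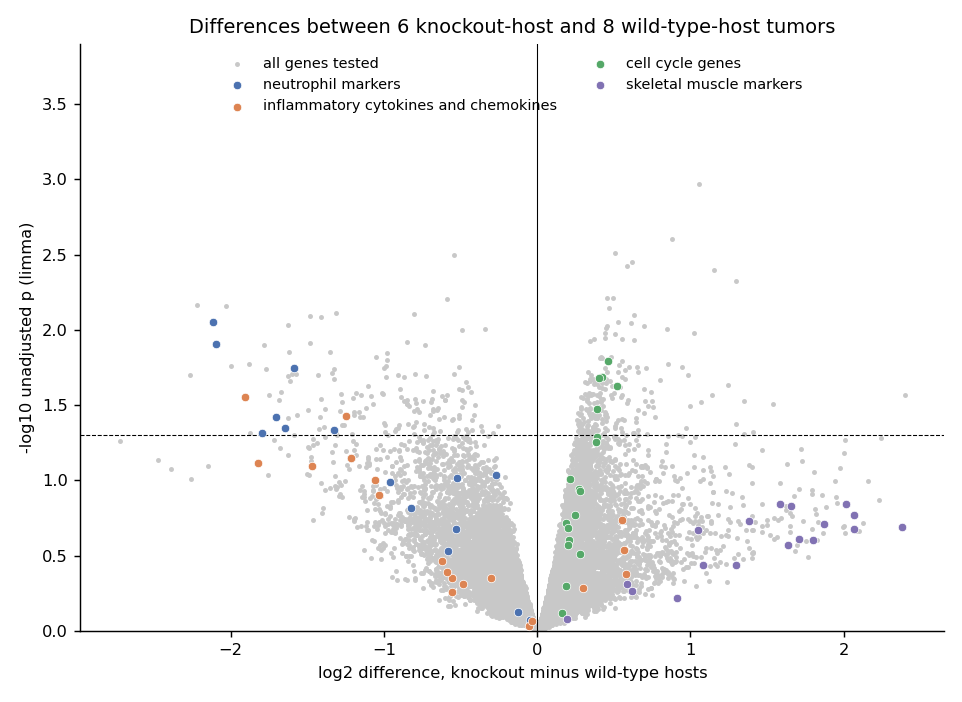
Log2 difference between 6 knockout-host and 8 wild-type-host tumors (x axis, knockout minus wild type) against -log10 of limma's unadjusted p (y axis) for the 24575 genes tested; colored points are members of 4 lists and the dashed line is at 0.05. All 16 neutrophil markers lie left of 0 and all 19 cell cycle genes and 18 skeletal muscle markers right of 0, and no gene passed after adjustment.

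Neutrophil markers had the lowest median of the 36 lists. Of 19 listed, 16 were tested; all 16 were lower in knockout hosts (42.5% of all genes were) and 7 of them reached an unadjusted p under 0.05 (1.5% of all genes did), with a list median of -1.09 against 0.04 over all genes tested. None passed after adjustment. Stfa2l1, a stefin A-like protease inhibitor of neutrophils, ran from -4.32 to -1.92 in knockout hosts (median -2.74) and from -3.83 to 2.37 in wild-type hosts (median -1.48), a difference of -2.11 ± 0.68 (SE). S100a9, a subunit of calprotectin, ran from 2.54 to 4.53 (median 3.77) against 2.29 to 8.52 (median 4.68), a difference of -1.70 ± 0.73. Cxcr2, the receptor for neutrophil-attracting CXC chemokines, ran from -3.54 to -1.72 (median -2.78) against -3.18 to 0.94 (median -1.18), a difference of -1.59 ± 0.58. The second such receptor, Cxcr1, differed by -2.10 ± 0.72, and it was dim. Csf3r, the receptor for granulocyte colony-stimulating factor, differed by -0.04 ± 0.23, and Mmp9, a gelatinase also made outside neutrophils, by -0.12 ± 0.37. In bulk RNA fewer cells of a type and less RNA per cell cannot be told apart.

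On 3 wild-type arrays these genes stood far above the rest. The mean level of the list was 2.26 on wild-type tumor 82, 1.74 on 9 and 1.59 on 65, and it lay between -1.35 and 0.01 on the other 11 arrays of both genotypes, where the other 5 wild-type arrays (-1.08 to 0.01) and the 6 knockout arrays (-1.35 to -0.03) overlapped. S100a9 was at 8.52, 7.24 and 7.80 on wild-type tumor 82, 9 and 65 and at most at 4.92 on the other 11. The mean of this same list had singled out wild-type tumor 9, 65 and 82, so the choice itself favored a high count in it. These arrays were the 3 highest for 11 of the 16 neutrophil markers (68.8%), against 645 of all 24575 genes (2.62%). They also had the 3 lowest 75th percentiles of signal among the 14 arrays, 403 (wild-type tumor 9), 485 (82) and 560 (65), against 662 to 1013 on the rest, and all were labelled male. The part of signal brightness in the result was not tested. Under the scalings run, the list median stayed between -1.16 and -0.70. It was -0.46 in female hosts alone (2 of 13 genes higher) and -1.73 in male hosts alone (0 of 14 higher). It was -0.12 on slide 3 and -2.21 on slide 4, which held wild-type tumor 9 and 65, and -1.003 with slide as a fixed block. With 51 and 81 kept it was -0.72. Without any 1 array it ran from -1.56 to -0.90.

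The same arrays were highest for inflammatory cytokines and chemokines. Of 19 genes tested, Il1b being in the neutrophil list as well, 15 were lower in knockout hosts (42.5% of all genes were) and 2 of these reached an unadjusted p under 0.05 (1.5% of all genes did); the list median was -0.56. The mean level was 1.68, 1.35 and 1.31 on wild-type tumor 82, 9 and 65, and the next arrays were knockout tumor 15 at 0.31 and 99 at -0.16. Cxcl3, a chemokine that acts on Cxcr2, was at 1.63 on wild-type tumor 9, 1.43 on 82 and 0.95 on 65 and at most at -1.90 on the other 11 arrays, a difference of -1.91 ± 0.77. Lif, a cytokine of the interleukin 6 family, ran from -3.81 to -2.08 (median -2.89) against -3.56 to -0.08 (median -1.62), a difference of -1.25 ± 0.54. Its 4 highest arrays were wild-type tumor 82, 5, 65 and 9. Il1b, which encodes interleukin 1 beta, was at 3.81 to 5.12 on the 3 arrays and at most at 2.34 on the rest (difference -1.21 ± 0.61). Of the monocyte chemokines, Ccl2 differed by 0.55 ± 0.39 and Ccl7 by 0.57 ± 0.51, both higher in knockout hosts. The list median was 0.02 in female hosts alone and -1.46 in male hosts alone, 0.34 on slide 3 and -2.27 on slide 4, and -0.11 without knockout tumor 95 and 99. Wild-type tumor 9, 65 and 82 were also the 3 highest arrays for 12 of 17 hypoxia and glycolysis genes, 10 of 20 ribosomal protein genes, 6 of 16 immediate early genes, 5 of 17 cAMP-responsive genes, 5 of 15 immune suppression genes and 4 of 12 reference genes, against 2.62% of all genes. These arrays being the dimmest, the part of the scaling in these counts was not tested.

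**Figure D3:**
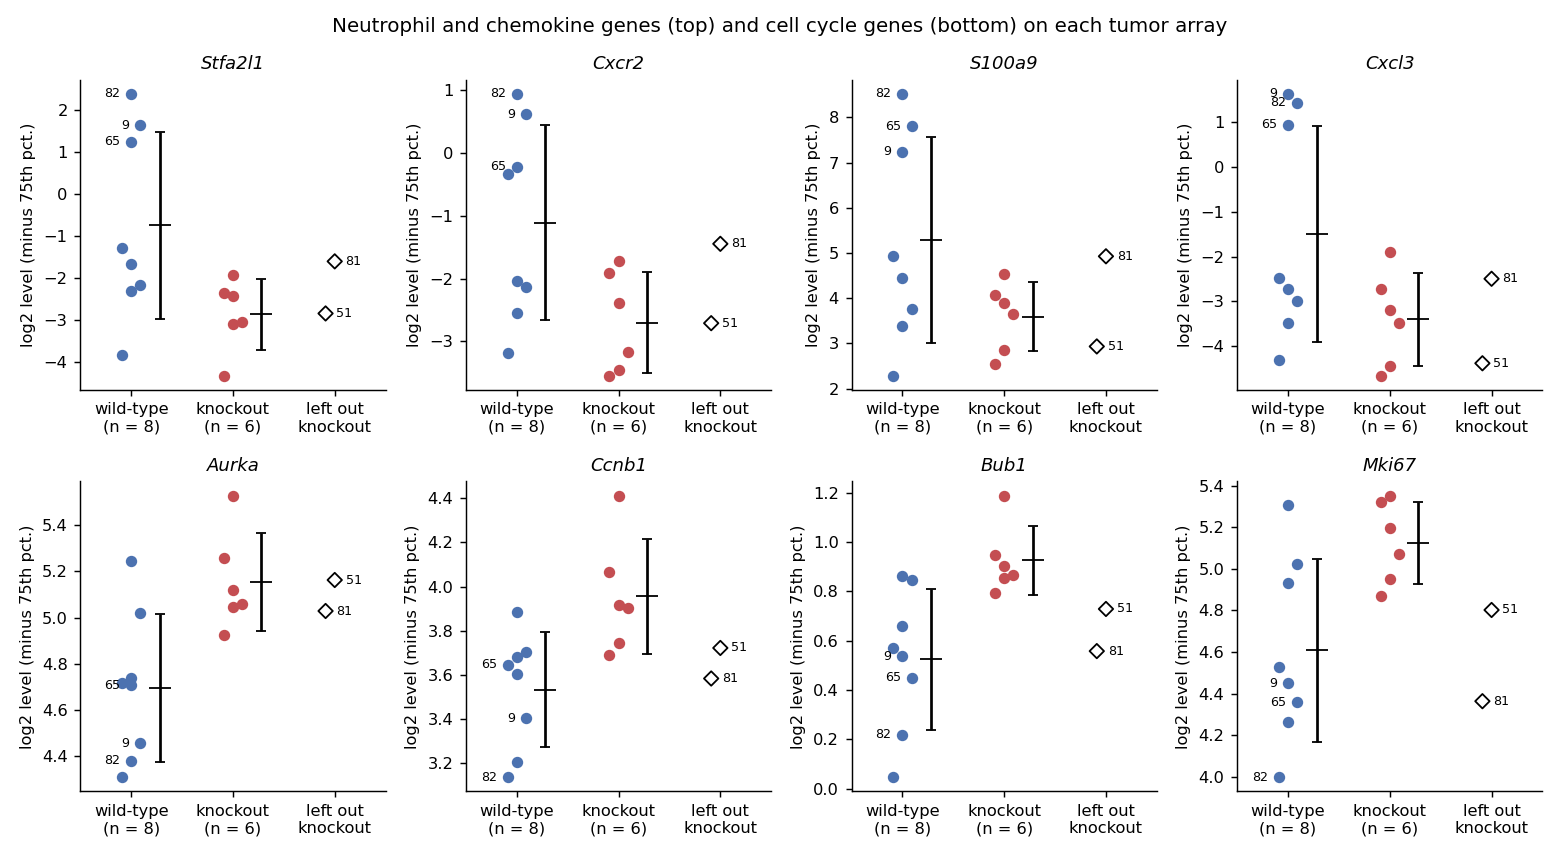
Log2 level (y axis, minus the array's 75th percentile) of 3 neutrophil genes and the chemokine gene Cxcl3 (top) and of 4 cell cycle genes (bottom) on each tumor array, as wild-type (blue), knockout (red) and left-out knockout (open diamonds); bars are mean ± SD of the 8 and 6 arrays kept. Among the arrays kept, wild-type arrays 9, 65 and 82 are the 3 highest in the top row. In the bottom row each of the 6 knockout arrays kept lies above the wild-type median while the groups overlap.

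Cell cycle genes had small differences that lay on one side. All 19 tested were higher in knockout hosts (57.5% of all genes were), with a list median of 0.28. By limma 5 of them reached an unadjusted p under 0.05 (1.5% of all genes did). None passed after adjustment. Promoters of the 4 members with the smallest p are shown first, because the list is known for shared promoter elements: the CCAAT box bound by NF-Y and the cell cycle homology region. The sequences are the 120 bases before the RefSeq transcription start (GRCm38.p6), 5′ to 3′ along the gene, with CCAAT (on either strand, ATTGG on the opposite one) and TTTGAA (on either strand) in capitals. All 4 genes lie on the minus strand, at chr2:172370571-172370690 (Aurka), chr2:127831860-127831979 (Bub1), chr13:100786487-100786606 (Ccnb1) and chr7:135716380-135716499 (Mki67).
Aurka: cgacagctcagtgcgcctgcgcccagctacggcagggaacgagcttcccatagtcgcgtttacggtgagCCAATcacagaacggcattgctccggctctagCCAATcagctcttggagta
Bub1: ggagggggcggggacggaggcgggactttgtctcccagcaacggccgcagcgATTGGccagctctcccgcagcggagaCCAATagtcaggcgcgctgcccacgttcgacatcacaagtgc
Ccnb1: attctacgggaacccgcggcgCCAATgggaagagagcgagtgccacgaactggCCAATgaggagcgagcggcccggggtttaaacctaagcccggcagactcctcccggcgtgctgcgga
Mki67: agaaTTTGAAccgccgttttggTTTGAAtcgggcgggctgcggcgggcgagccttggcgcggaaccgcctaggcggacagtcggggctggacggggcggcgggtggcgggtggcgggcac
CCAAT was found in 13 of the 17 cell cycle genes with a promoter in the table (76.5%) and in 5975 of 27025 promoters of the same length (22.1%). TTTGAA was found in 5 of 17 (29.4%) and in 1956 of 27025 (7.24%). These are matches of letters and say nothing of binding in these tumors.

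Aurka, a kinase of the mitotic spindle, ran from 4.92 to 5.53 in knockout hosts (median 5.09) and from 4.31 to 5.24 in wild-type hosts (median 4.71), a difference of 0.46 ± 0.17 (SE, limma, unadjusted p = 0.016). Bub1, a kinase of the spindle checkpoint, ran from 0.79 to 1.19 (median 0.88) against 0.05 to 0.86 (median 0.55), a difference of 0.40 ± 0.15. Ccnb1, the mitotic cyclin B1, ran from 3.69 to 4.41 (median 3.91) against 3.14 to 3.88 (median 3.63), a difference of 0.42 ± 0.16. Mki67, the Ki-67 antigen of cycling cells, ran from 4.87 to 5.35 (median 5.13) against 3.997 to 5.31 (median 4.49), a difference of 0.52 ± 0.20. In each of these 4 genes all 6 knockout arrays lay above the wild-type median, and the groups overlapped. Of the replication genes, Mcm2 differed by 0.27 ± 0.16, Mcm3 by 0.19 ± 0.14 and Pcna by 0.19 ± 0.27. For Pcna 3 of 6 knockout arrays were below the wild-type median. The mean level of the list was 4.44 ± 0.16 (SD, n = 6) in knockout and 4.14 ± 0.30 (SD, n = 8) in wild-type hosts. The lowest arrays were wild-type tumor 9 (3.63), 82 (3.95) and 5 (3.95), and wild-type tumor 45 (4.56), 1 (4.45) and 65 (4.25) lay among the knockout arrays (4.24 to 4.63). All 19 genes stayed higher under each of the scalings, where the median ran from 0.21 to 0.28. With slide as a fixed block the median was 0.46, and it was 0.57 on slide 3 and 0.46 on slide 4, where the medians of all genes were 0.21 and 0.06. It was 0.16 in female hosts (18 of 19 higher), 0.44 in male hosts and 0.18 without knockout tumor 95 and 99. With the 2 arrays left out put back the list median was 0.32. On those arrays Mki67 was at 4.80 and 4.36 and Bub1 at 0.73 and 0.56, below each of the 6 knockout arrays kept. Without any 1 array the median ran from 0.21 to 0.39.

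The third question was whether the prostaglandin pathway itself differed with the host genotype. Of 24 genes listed 19 were tested. In knockout hosts 7 were higher (57.5% of all genes were) and 12 lower, with a median of -0.06. With slide as a fixed block the median was 0.10, below the 0.15 of all genes. At an unadjusted p under 0.05 (limma) there was 1 of 19 (5.26%, against 1.5% of all genes), and a share that rests on 1 gene cannot be compared. That gene was Ptgir, the prostacyclin receptor, which also couples to Gs. It ran from -1.54 to -0.46 in knockout hosts (median -0.98) and from -1.88 to 1.22 in wild-type hosts (median -0.08), a difference of -0.80 ± 0.30 (SE, limma, unadjusted p = 0.020). All 6 knockout arrays were below the wild-type median, and the 4 highest arrays were wild-type tumor 82 (1.22), 65 (0.94), 9 (0.79) and 4 (0.08). In female hosts alone it differed by -0.12 and in male hosts alone by -1.47. Among the enzymes, Ptgs2, the inducible cyclooxygenase, ran from 1.98 to 3.60 (median 2.85) against 1.40 to 5.15 (median 2.79), a difference of -0.40 ± 0.41, which turned to 0.34 in female hosts alone. Ptges differed by -0.03 ± 0.16, by 0.28 with slide as a fixed block and by -0.33 as the mean of all its probes, so its direction is not settled, and Ptgs1, the constitutive cyclooxygenase, by -0.15 ± 0.53. Slco2a1, the transporter that takes up prostaglandins, differed by -0.39 ± 0.24. Of the other receptors, Ptger4, the second Gs-coupled receptor for prostaglandin E2, ran from 0.53 to 1.46 (median 1.14) against 0.22 to 1.72 (median 0.78), a difference of 0.18 ± 0.25 that was -0.06 in male hosts alone. Ptger1, Ptger3 and Hpgd, whose product degrades prostaglandin E2, were too dim to test. Ptger2 itself, which encodes EP2, ran from -5.27 to -3.09 (median -3.87) against -6.18 to -3.46 (median -4.81), a difference of 0.88 ± 0.46. It was well above background on 5 of 6 knockout and 3 of 8 wild-type arrays, and where its probe lies relative to the deletion is not known, so it checks no genotype label. Of 17 cAMP-responsive genes 9 were higher, with a median of 0.01.

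**Figure D4:**
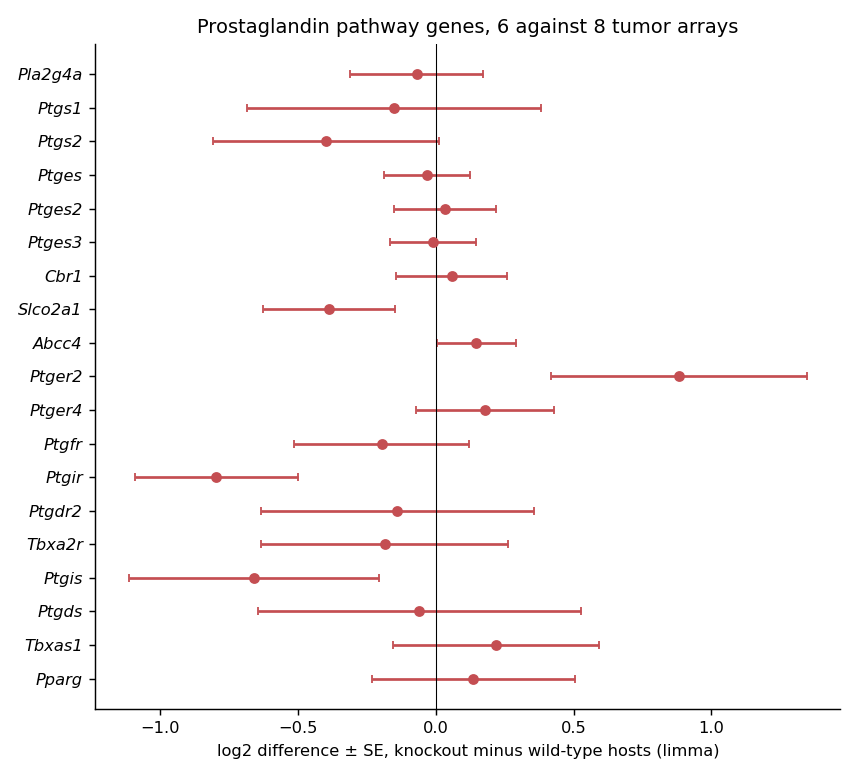
Log2 difference ± SE from limma (x axis, 6 knockout minus 8 wild-type tumor arrays) for the 19 prostaglandin pathway genes tested (y axis). Ptgir lies at -0.80 and Ptger2 at 0.88, and for most other genes the SE bar crosses 0.

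Genes of other cell types were compared in the same way. Over all genes 57.5% were higher in knockout hosts, with a median of 0.04. Skeletal muscle markers had the highest median, 1.61 with 18 of 18 higher, and 0 of 18 reached an unadjusted p under 0.05. The mean level of the list ran from -3.88 (knockout tumor 59B) to 4.70 (knockout tumor 15) in knockout and from -3.61 (wild-type tumor 82) to 4.07 (wild-type tumor 1) in wild-type hosts, so the groups covered the same range. Ckm, the muscle creatine kinase, ran from -6.58 to 4.54 against -6.09 to 3.67, a difference of 2.07 ± 1.42. The median of the muscle list was -1.29 in female hosts alone and 4.21 in male hosts alone. Endothelial markers were higher for 12 of 14 genes (median 0.21), with none at an unadjusted p under 0.05; Flt1, a receptor for vascular endothelial growth factor, differed by 0.42 ± 0.25. Fibroblast and matrix genes were higher for 10 of 16, with a median of 0.10. Oxidative phosphorylation genes were higher for 17 of 18 (median 0.12, and 0.05 with 12 of 18 higher under the percentile of bright probes). Ribosomal protein genes were higher for 1 of 20 (median -0.13), but the median was 0.26 with slide as a fixed block and 0.16 in female hosts alone. Hypoxia and glycolysis genes were higher for 2 of 17 (median -0.15). Their median was 0.11 with that block, below the 0.15 of all genes. In female hosts alone it was 0.36, against 0.08 for all genes.

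Lists that follow the arrays left out are given as a description, with no test, since they or genes that move with them chose the arrays. Leaving out 51 and 81 lowered the median difference of the interferon gamma response from 1.29 to 0.58, of cytotoxic and natural killer cell genes from 0.95 to 0.34, of T cell markers from 0.85 to 0.28, of the type I interferon response from 0.72 to 0.23, of dendritic cell and MHC class II genes from 0.67 to 0.26 and of MHC class I presentation from 0.48 to 0.21. Without 51 and 81 each of these medians was above 0, with 16 of 16, 10 of 13, 14 of 17, 16 of 18, 11 of 13 and 10 of 12 genes higher in knockout hosts (57.5% of all genes were). Under other settings each of these lists had a median below 0. With slide as a fixed block the cytotoxic median was -0.42 (2 of 13 higher) and the dendritic cell one -0.04 (6 of 13). In female hosts alone the T cell median was -0.03 (6 of 15) and the cytotoxic one -0.33 (4 of 9). The MHC class I median was -0.04 without knockout tumor 95 and 99 (5 of 12), and the type I interferon median -0.17 with array weights (5 of 18). The interferon gamma level ran from -0.34 (knockout tumor 12) to 2.62 (knockout tumor 99) in knockout hosts. In wild-type hosts it ran from -0.48 (wild-type tumor 5) to 1.74 (wild-type tumor 82), so the groups overlapped. The interferon gamma median was -0.08 with slide as a fixed block and 0.02 in female hosts alone. The median of macrophage markers was 0.63 with both arrays and 0.18 without them (16 of 17 higher), and that of B cell and plasma cell markers 0.71 and 0.31 (6 of 9 higher). For mast cell markers it was 0.06 with them and -0.42 without (3 of 8 higher), for skeletal muscle 1.64 and 1.61, and for endothelial markers 0.25 and 0.21.

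**Figure D5:**
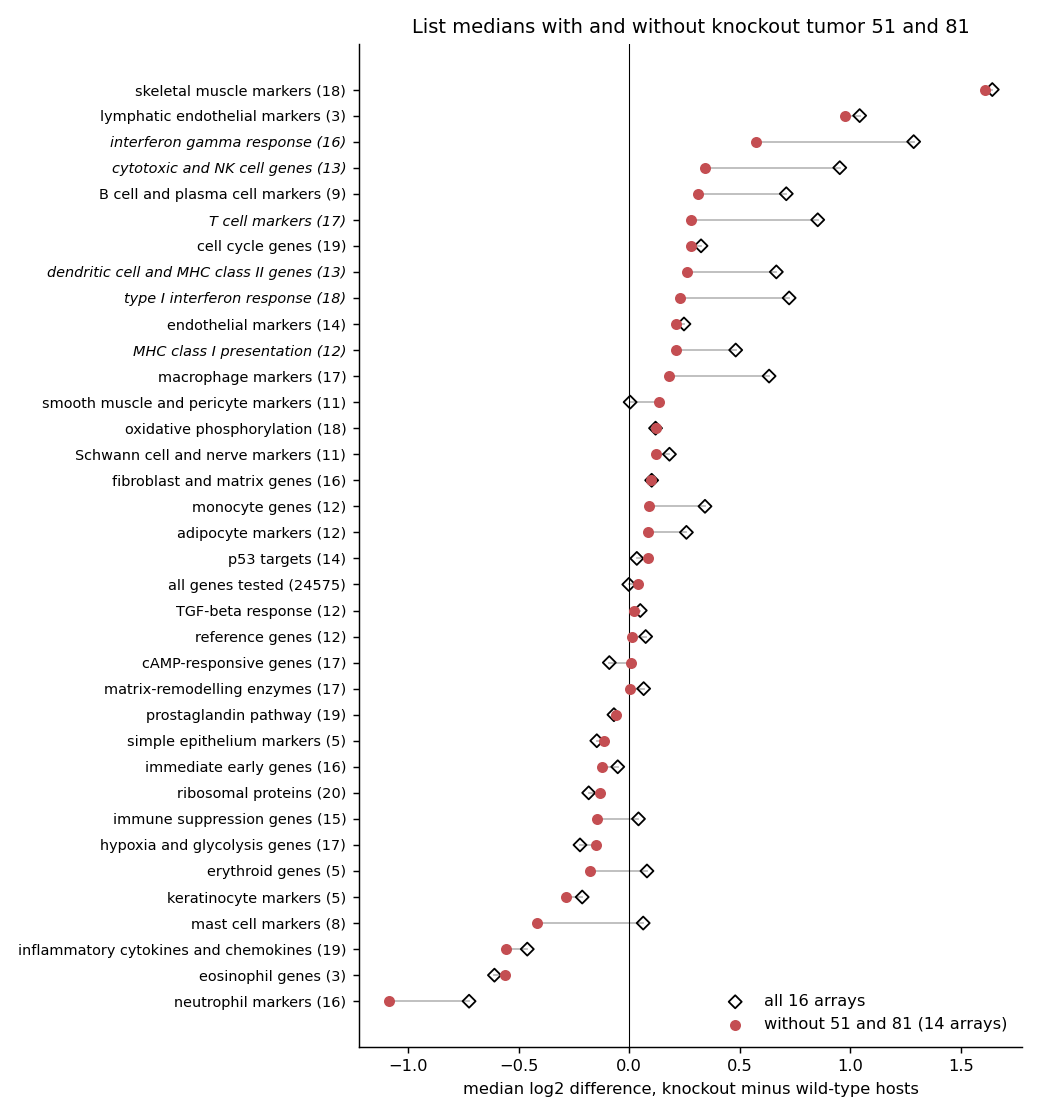
Median log2 difference (x axis, knockout minus wild-type hosts) of each gene list (y axis, number of genes tested in brackets). Open diamonds use all 16 tumor arrays, and red points leave out knockout tumor 51 and 81. Names in italics are lists given with no test, since they or genes that move with them chose the arrays left out. Interferon and T cell lists move toward 0, from 1.29 to 0.58 for interferon gamma, and neutrophil markers move away from it, from -0.72 to -1.09.

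Whether the genotype difference itself depended on host sex was tested with limma's interaction term. None of 24575 genes passed (smallest adjusted p = 0.99997), and 831 (3.38%) reached an unadjusted p under 0.05. With the smallest p, Cpa3, a mast cell protease, had a male difference 2.86 ± 0.75 above the female one, Gpr183, an oxysterol receptor of lymphocytes, 2.03 ± 0.52 and Abcg8, a sterol transporter, 1.32 ± 0.38. The male difference lay below the female one for Nos2 (-2.14 ± 0.58), Casp4 (-1.40 ± 0.37), an inflammatory caspase, and Wdr60 (-0.90 ± 0.23). List medians of the interaction were -0.94 for neutrophil markers, -1.54 for inflammatory cytokines and 5.75 for skeletal muscle, against -0.00 over all genes tested. The male-labelled knockout group held knockout tumor 95 and 99, whose Y-linked signal went against their label, so the sexes compared are those of the labels. Without both, 1 knockout array labelled male was left, assumed to vary like the other groups; 0 genes passed (smallest adjusted p = 0.0778, limma), and 1207 reached an unadjusted p under 0.05.

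In stroma, whose values the choice of arrays had not used, the same comparison was made with the arrays numbered 51 and 81 left out, and its calls turned on single arrays. Over all 14 arrays none of 25543 genes passed (smallest adjusted p = 0.313, limma), and 4058 (15.9%) reached an unadjusted p under 0.05. Without wild-type stroma 9, 4189 of 25296 genes passed (16.6%), and without wild-type stroma 4, 965 of 25158 (3.84%, with 2.4% passing as lower in knockout hosts). Without wild-type stroma 65 and 82 none of 25215 passed, and 956 (3.79%) reached an unadjusted p under 0.05. Wild-type stroma 9 and the arrays 65 and 82 stood apart in opposite directions. Wild-type stroma 4 lay inside the range of the other stroma arrays for cell cycle genes (1.505) and muscle (5.91). The cell cycle level was -2.70 on wild-type stroma 9, the lowest of 16 stroma arrays (next -0.32). It was highest on wild-type stroma 65 and 82, at 4.36 and 4.45. Both lay inside the range of the tumor arrays (3.63 to 4.63), as did wild-type stroma 45 (3.78) and 68 (3.72). Muscle levels were highest on wild-type stroma 9 (7.95) and lowest on 65 (1.80) and 82 (0.44). Wild-type stroma 9 also had the lowest neutrophil level (-2.38, next -1.88). It and knockout stroma 95 and 99, all labelled male, had Y-linked levels in the range of female-labelled stroma, whereas wild-type tumor 9 did not. Xist was at -2.24, -1.82 and -1.47 on these stroma arrays. It ran from -3.56 to -0.31 on female-labelled stroma and was at most at -6.07 on the other male-labelled stroma arrays. The fits take sex from the labels. Without those 3 arrays 0 of 24832 genes passed and 5505 reached an unadjusted p under 0.05.

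Cell cycle genes were lower in knockout-host stroma for 19 of 19, with a median of -1.34, while 54% of all genes were higher. Without wild-type stroma 9 the median was -2.25 and 16 of 19 passed, all of them lower (10% of all genes passed as lower), and without 65 and 82 it was -0.17 with 6 of 19 higher and none passing. Neutrophil markers were higher in knockout hosts for 9 of 16 genes in stroma (54% of all genes were) with a median of 0.03, for 10 of 16 without 65 and 82 (median 0.04), and for 5 of 16 without wild-type stroma 9 (median -0.17). The test of genotype by tissue over 28 arrays passed no gene of 27817 (smallest adjusted p = 0.323), and 3704 (13.3%) reached an unadjusted p under 0.05. It passed 2312 genes where wild-type stroma 9 was left out, 468 where wild-type stroma 4 was, and none of 27759 without 65 and 82, where 1423 reached an unadjusted p under 0.05. For 17 of 18 neutrophil markers the stroma difference lay above the tumor one, by a median of 1.21, and none passed. Over all genes 52.9% lay above, with a median of 0.05. Without any 1 stroma array the median ran from 0.94 to 1.56, with 16 or 17 of 18 above. Wild-type tumor 9, 65 and 82 stayed in all these fits, so that range does not cover their part in the difference. The stroma difference of Ptgir lay 1.66 ± 0.44 above the tumor difference (0.86 ± 0.32 in stroma), and that of Gli1, a transcription factor of Hedgehog signalling, lay below it (-1.98 ± 0.44). Over the 28 arrays both missed the threshold after adjustment.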

How the data were processed

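Total RNA (200 ng, RIN above 7) was labelled with Cy3 per the labels' protocols, and the submitters' processing notes name Agilent Feature Extraction, version 10.7.3.1. The deposited values are intensities per spot, Feature Extraction's processed signal, with that software's flags for spots above background per the file headers. Control and outlier spots were left out, log2 was taken, and each array's 75th percentile was subtracted; each gene is its brightest probe on average over the arrays, with the mean of all its probes as an alternative. The deposited series matrix, on a log2 scale, lay within 0.01 of these values for 98.7% of tumor values once each probe was centred on its tissue median and served as an alternative. Genes well above background on at least 6 arrays with at most 2 missing values were tested with limma 3.58.1 in R 4.3.3, with a mean per genotype and sex and Benjamini-Hochberg adjustment, after the procedure was tested on simulated data. Genes were named by smallest p per direction, by list, by groups without overlap and by the gap to the arrays left out. Members and lists were chosen with earlier results of these data known. Same-numbered tumor and stroma arrays had residual correlations of -0.0833 to 0.378 (median 0.146, 8 of 13 pairs above 0.1). These values do not settle whether the numbers pair samples. The main test of genotype by tissue did not pair them, and a fit with the number as a replicate block is given below.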

Additional observations from a re-analysis of the deposited data

Results flagged for a closer look

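In 5 of 140 groups of kept arrays examined, for a list's mean level or a named gene, 1 array stood apart by Dixon's test at the 95% level. Chance alone marks some groups at that level. The mean level of cytotoxic and NK cell genes was -2.90 on knockout tumor 12, with the next knockout array at -1.51. Ptgs1 was at -3.03 on knockout tumor 12, with the next at -2.01. Neil2 was at -1.35 on wild-type tumor 5, the array with the most spots above background, with the next wild-type array at -1.96. Prpf8 was at 7.53 on knockout tumor 95 against 7.22 on the next, and Suz12 at 3.11 on the same array against 2.73.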

How the results depend on the processing

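Alternatives covered scaling, filter, array weights, slide, sex, the number in the title as a block and leaving out each array. In the tumor comparison and genotype by sex no setting passed more than 1 gene at an adjusted p under 0.05 (limma). In the tumor comparison the count at an unadjusted p under 0.05, 369 as reported, was 594 with no filter, 1587 with array weights, 948 with slide as a fixed block, 125 in female hosts alone, 715 in male hosts alone, 837 with 51 and 81 kept and 628 with 51 kept. Leaving out 1 array gave 206 (without knockout tumor 59B) to 828 (without wild-type tumor 4), with 602, 233 and 237 without wild-type tumor 1, 5 and 82. Between 0 and 1 gene then passed: without knockout tumor 15 it was XIST (3.61 ± 0.35), a sex-linked gene. The male-labelled knockout arrays left in that fit were knockout tumor 95 and 99, whose Y-linked levels went against their label. Without knockout tumor 95 and 99, 1 probe with no symbol passed. For genotype by sex the range was 495 (without knockout tumor 59B) to 1418 (without wild-type tumor 4), with 499 without knockout tumor 15, and 0 to 1 gene passed. In stroma 4058 became 1705 with slide as a fixed block, 7233 with all 16 arrays and 956 without wild-type stroma 65 and 82, a setting chosen after seeing the data, as were those that follow; for genotype by tissue that setting gave 1423. Leaving out 1 stroma array gave 1838 (without knockout stroma 49) to 9560 (without wild-type stroma 9) in stroma, with 0 to 4189 genes passing, and 2520 (without wild-type stroma 82) to 7530 (without wild-type stroma 9) for genotype by tissue, with 0 to 2312 passing. The passing genes came without wild-type stroma 9 or, with 965 and 468 genes, without wild-type stroma 4. The stroma count also moved by over 1.5 times without wild-type stroma 45 (2345), 65 (2200) or 82 (2154) and without knockout stroma 59B (1940), 15 (2697) or 99 (2603). Without the 5 arrays against their sex label 1 gene passed for genotype by tissue. The cause of these moves was not tested. With the number in the title as a replicate block the genotype by tissue count was 4326 against 3704. The tumor count from 28 arrays was 268 against 279 without the block. No call changed, and 2 arrays correlated best with their own number. The median of all genes on slide 3 was 0.21, and 0.062 under quantile scaling. Single genes changed sign as follows. Ptger4 was at -0.056 in male hosts alone, and in female hosts alone Ptgs2 was at 0.34, Nos2 at 0.22 and Ptges at 0.25. Ptges was at 0.28 with slide as a fixed block, and without 1 array at -0.10 to 0.040, above 0 without wild-type tumor 45 or 82 or knockout tumor 15. Ptgs1 was at 0.21 with array weights, and without 1 array at -0.46 to 0.24, above 0 without knockout tumor 12 or wild-type tumor 9. Dim genes such as Ptger2 rest on signal near background.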
